A study of Mus musculus with 13 samples.

Results

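The genes described here are 9 members of the purinergic system of the mouse brain, taken by symbol: the ATP-gated channels P2rx4 and P2rx7, the G protein-coupled nucleotide receptors P2ry1, P2ry6 and P2ry14, the ectonucleotidases Entpd1 and Nt5e, and the adenosine receptors Adora1 and Adora3. They are 9 of 55401 gene identifiers in the bulk RNA-seq tables, each symbol was found once, and all 9 passed the filter on low counts. Frozen hemispheres of 13 male C57BL/6J mice were sequenced, 1 library per mouse, in 3 groups. The control group (CTL, n = 5) received control chow and was collected at week 6. The cuprizone group (CPZ, n = 4) received chow with 0.3% cuprizone, a copper chelator that kills oligodendrocytes, for 4 weeks and was collected at week 4. The recovery group (RCV, n = 4) had the cuprizone chow for 4 weeks, was then returned to control chow for 2 weeks and was collected at week 6. The labels give an age of 6 to 8 weeks for the animals. The CPZ mice were collected 2 weeks before the others, so that collection time and cuprizone cannot be told apart in their comparisons.

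Purinergic signalling starts when cells release or leak ATP, ADP or UDP into the extracellular space. P2X channels open on binding ATP and let cations in, and P2Y receptors respond to other nucleotides through G proteins. Ectonucleotidases on the cell surface break the signal down: CD39, encoded by Entpd1, removes phosphates from ATP and ADP, and CD73, encoded by Nt5e, turns the resulting AMP into adenosine, which in turn acts on the adenosine receptors. In the brain, several nucleotide receptors are known from microglia, where they serve sensing of damage, process movement and phagocytosis, while the A1 adenosine receptor is known as an inhibitory receptor of neurons.

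P2ry6, Adora3, P2rx7, Entpd1 and P2rx4 were higher in CPZ than in CTL, while Nt5e, Adora1, P2ry1 and P2ry14 did not pass the test. P2ry6 was 5.79-fold and Adora3 6.16-fold higher, and the other 3 were between 1.42-fold and 1.77-fold higher. That is 5 of 9 members called higher at an adjusted p below 0.05 in edgeR's quasi-likelihood test, beside 7.66% of the 14985 genes tested, and no member was called lower. The members and the gene lists used below were chosen with earlier results of these data known, so such shares are a description. The CPZ libraries lay above every CTL library for 6 members, which was the case for 8.25% of all genes tested. No member was called between RCV and CTL by edgeR, DESeq2 or limma-voom, beside 0.36% of all genes called higher in RCV by edgeR. An unadjusted p below 0.05 in edgeR was found for 2 members, beside 929 of the 14985 genes tested. P2ry6, Adora3, P2rx7 and Entpd1 were also higher in CPZ than in RCV, 4 of 9 members beside 5.13% of all genes.

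**Figure D1:**
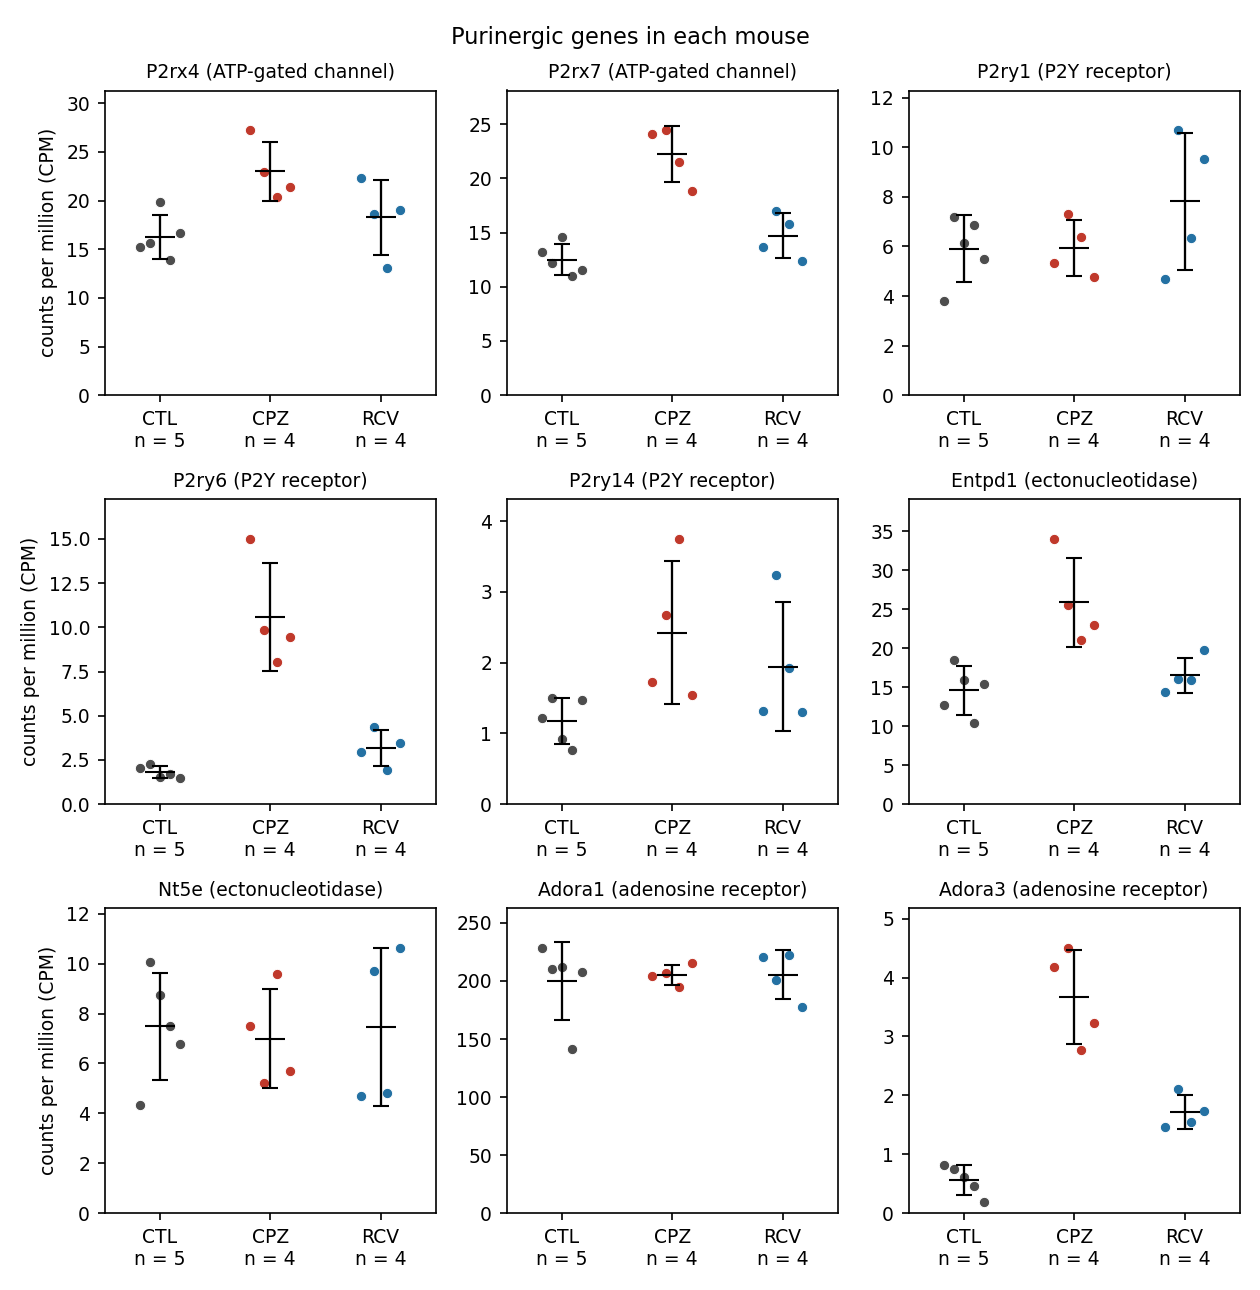
Counts scaled to the library total with its TMM factor (CPM) for the 9 members in each mouse of CTL (n = 5), CPZ (n = 4) and RCV (n = 4). The y axis starts at 0 and has a different range in each panel. Points are mice, and the bars give the mean ± SD of a group. The CPZ points lie above all CTL points for P2rx4, P2rx7, P2ry6, P2ry14, Entpd1 and Adora3, and overlap with them for P2ry1, Nt5e and Adora1.

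The promoters of the called members are shown because these genes rose together, and because they differ in the short motifs they hold. RefSeq gave 14 promoter windows for 8 of the 9 members, each from 250 bases before to 50 bases after a start site on GRCm38.p6. P2ry6 had no entry. The motifs were searched on both strands. GAGGAAG is a core of the sites of the myeloid factor PU.1 and of related ETS factors. TGANTCA is a relaxed form of the AP-1 site, with any base in the middle where that site has C or G. GAAANNGAA is a core of the sites of interferon regulatory factors. Motif letters are in capitals, and all sequences are given 5′ to 3′ on the strand of the gene, the plus strand for these 4 genes.
Adora3, chr3:105904171-105904470: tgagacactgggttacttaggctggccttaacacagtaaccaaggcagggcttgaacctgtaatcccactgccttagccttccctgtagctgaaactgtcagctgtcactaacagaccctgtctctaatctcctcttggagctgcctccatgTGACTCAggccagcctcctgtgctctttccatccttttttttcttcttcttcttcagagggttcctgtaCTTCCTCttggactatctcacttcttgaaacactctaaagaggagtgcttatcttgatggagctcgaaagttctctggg
P2rx7, upstream start, chr5:122643677-122643976: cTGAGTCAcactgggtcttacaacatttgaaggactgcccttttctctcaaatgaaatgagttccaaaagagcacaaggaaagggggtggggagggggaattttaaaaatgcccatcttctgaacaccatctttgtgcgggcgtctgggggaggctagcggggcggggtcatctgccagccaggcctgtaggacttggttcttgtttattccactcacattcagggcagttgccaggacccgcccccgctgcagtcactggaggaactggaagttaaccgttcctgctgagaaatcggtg
P2rx7, downstream start, chr5:122650133-122650432: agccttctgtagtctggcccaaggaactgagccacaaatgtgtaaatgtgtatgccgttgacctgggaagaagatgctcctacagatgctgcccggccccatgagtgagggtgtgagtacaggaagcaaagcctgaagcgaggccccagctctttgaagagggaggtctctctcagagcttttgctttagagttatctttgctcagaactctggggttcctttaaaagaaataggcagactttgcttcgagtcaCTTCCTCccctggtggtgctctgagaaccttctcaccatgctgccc
Entpd1, upstream start, chr19:40612116-40612415: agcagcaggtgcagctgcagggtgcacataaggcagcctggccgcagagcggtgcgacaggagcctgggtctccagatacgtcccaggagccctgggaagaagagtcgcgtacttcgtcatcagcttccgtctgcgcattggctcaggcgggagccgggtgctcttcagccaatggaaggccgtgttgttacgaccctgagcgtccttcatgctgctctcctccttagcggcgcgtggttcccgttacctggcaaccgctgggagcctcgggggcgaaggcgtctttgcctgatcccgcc
Entpd1, downstream start, chr19:40659520-40659819: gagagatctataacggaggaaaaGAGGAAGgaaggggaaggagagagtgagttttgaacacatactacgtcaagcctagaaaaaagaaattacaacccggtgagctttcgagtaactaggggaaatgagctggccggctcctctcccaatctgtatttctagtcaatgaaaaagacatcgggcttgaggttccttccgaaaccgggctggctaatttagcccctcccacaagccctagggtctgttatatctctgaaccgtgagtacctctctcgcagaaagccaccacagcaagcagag
P2rx4, chr5:122707294-122707593: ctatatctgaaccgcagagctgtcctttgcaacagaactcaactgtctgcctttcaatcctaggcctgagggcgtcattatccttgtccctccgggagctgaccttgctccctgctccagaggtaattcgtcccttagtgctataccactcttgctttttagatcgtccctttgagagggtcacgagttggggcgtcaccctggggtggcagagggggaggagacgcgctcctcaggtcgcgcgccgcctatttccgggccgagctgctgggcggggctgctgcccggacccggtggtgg

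The Adora3 window held both the ETS motif, at position -29 from the start site on the minus strand, and the AP-1 motif at position -98. P2rx7 had the AP-1 motif at position -249 of the upstream start and the ETS motif at position 4 of the downstream start, again on the minus strand. Entpd1 had the ETS motif at position -227 of the downstream start, and the P2rx4 window held none of the 3 motifs. The windows also differed in CpG content, with 1 CpG in Adora3, 4 and 8 in P2rx7, 10 and 23 in Entpd1 and 18 in P2rx4, beside a median of 7 over all promoters. Over all windows of the members, 4 of 14 held the ETS motif and 5 of 14 the AP-1 motif, including windows of P2ry14 and Adora1, which were not called. The matches of Adora1 at position -104 and of P2ry14 at position -144 have A in the middle and so fit only the relaxed form. Of all 32817 promoters of that length, 13.6% held the ETS motif, 7.81% the AP-1 motif and 8.55% the interferon motif, which none of the members' windows held. The match of a motif is a description of the sequence.

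Of the ATP-gated channels, the estimated rise was larger for P2rx7 than for P2rx4. P2rx7, which opens at high ATP and is known for activation of the inflammasome, was measured at 13.2, 12.2, 14.6, 11.01 and 11.6 CPM in the CTL mice, in order of replicate. It reached 24.1, 24.4, 21.5 and 18.9 CPM in the CPZ mice and 13.6, 17.0, 15.8 and 12.4 CPM in the RCV mice. All CPZ mice were above all mice of both other groups, and the RCV and CTL mice overlapped. The log2 fold change of P2rx7 from CTL to CPZ was 0.83 (standard error 0.12, edgeR adjusted p = 0.000137), and that from RCV to CPZ was 0.59 (standard error 0.12, edgeR adjusted p = 0.00789). Between RCV and CTL it was 0.23, with a 95% interval from -0.01 to 0.48.

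P2rx4 responds to lower ATP and lies 16.1 kb downstream of P2rx7 on the same strand of chromosome 5, P2rx7 at 122643911 to 122691432 and P2rx4 at 122707544 to 122729738 (mm10). Its CPM values were 15.2, 15.6, 19.8, 13.9 and 16.7 in CTL, 27.2, 23.0, 20.4 and 21.4 in CPZ, and 22.3, 18.6, 13.1 and 19.1 in RCV. The lowest CPZ mouse was only slightly above the highest CTL mouse, and the RCV mice spread over both ranges. The log2 fold change from CTL to CPZ was 0.50 (standard error 0.14, edgeR adjusted p = 0.0283). The call of P2rx4 was lost in 5 of the 13 fits with a library left out, with adjusted p = 0.0658 without CTL replicate 1, 0.059 without CTL replicate 2, 0.0662 without CTL replicate 4, 0.117 without CPZ replicate 1 and 0.0667 without CPZ replicate 2, and its log2 fold change stayed between 0.42 and 0.58. The rise from CTL to CPZ was larger for P2rx7 than for P2rx4 by 0.32 on the log2-CPM scale (two-sided exact permutation p = 0.0159, adjusted p = 0.0476 over 15 differences between members), and this difference fell to 0.14 on the log2 TPM scale with an adjusted p = 0.429.

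Among the P2Y receptors, P2ry6 stood out from P2ry1 and P2ry14. P2ry6 is a receptor for UDP that is known to drive phagocytosis by microglia, and lies on the minus strand of chromosome 7 at 100937630 to 100974649. Its CPM values were 2.04, 2.25, 1.54, 1.68 and 1.47 in the CTL mice. They were 14.98, 9.85, 8.05 and 9.43 in the CPZ mice and 2.93, 4.37, 1.93 and 3.47 in the RCV mice. Every CPZ mouse was far above every other mouse, and in RCV 3 of the 4 mice were above the CTL range. The counts behind these values were small in CTL, between 8 and 15 per library, and between 58 and 104 in CPZ.

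The log2 fold change of P2ry6 was 2.53 between CPZ and CTL (standard error 0.24, edgeR adjusted p = 3.08e-06) and 1.72 between CPZ and RCV (standard error 0.24, edgeR adjusted p = 0.000514). The value for CPZ against CTL stayed between 2.33 and 2.65 in the fits that each left out 1 library. Between RCV and CTL it was 0.81 with a 95% interval from 0.26 to 1.37, and this did not pass the adjustment over all genes (edgeR adjusted p = 0.456).

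P2ry1, a receptor for ADP found on astrocytes and neurons, had 5.91 ± 1.35 CPM in CTL (SD, n = 5), 5.95 ± 1.12 CPM in CPZ (SD, n = 4) and 7.82 ± 2.78 CPM in RCV (SD, n = 4). These ranges overlapped, and the log2 fold change between CPZ and CTL was 0.01 with a 95% interval from -0.46 to 0.49. P2ry14, a receptor for UDP-glucose, rested on few reads, with 5 to 10 counts per library in CTL, 12 to 27 in CPZ and 6 to 20 in RCV. All 4 CPZ mice were above the CTL mice, with only a small gap between the highest CTL and the lowest CPZ mouse. P2ry14 had a log2 fold change of 1.04 with a 95% interval from 0.33 to 1.74, and the edgeR adjusted p was 0.0844, between 0.0569 and 0.272 in the alternatives.

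Compared within the role, the rise of P2ry6 from CTL to CPZ was larger than that of P2ry1 by 2.33 and than that of P2ry14 by 1.51 on the log2-CPM scale (two-sided exact permutation tests, p = 0.0159 and adjusted p = 0.0476 for each). With 4 against 5 mice 0.0159 is the smallest p this test allows, and with 4 against 4 mice it is 0.0286. On the log2 TPM scale both differences had an adjusted p = 0.0794.

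Of the ectonucleotidases among the members, Entpd1 was called and Nt5e was not. Entpd1 lies on the plus strand of chromosome 19 at 40612366 to 40741602, and its product CD39 is a surface marker of microglia and of endothelium. It had 12.8, 18.5, 16.0, 10.4 and 15.4 CPM in the CTL mice. It had 34.0, 25.5, 21.1 and 23.0 CPM in the CPZ mice and 14.4, 16.0, 16.0 and 19.7 CPM in the RCV mice. The CPZ mice lay above all others, with CPZ replicate 1 the highest, and RCV and CTL overlapped. Its log2 fold change was 0.83 between CPZ and CTL (standard error 0.16, edgeR adjusted p = 0.00272) and 0.65 between CPZ and RCV (standard error 0.17, edgeR adjusted p = 0.0322). The call against RCV was lost in 5 of the 13 fits with a library left out, with adjusted p = 0.112 without CPZ replicate 1, 0.0722 without CPZ replicate 2, 0.11 without RCV replicate 1, 0.0656 without RCV replicate 2 and 0.0812 without RCV replicate 3.

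The Entpd1 value also depended on the unit. In the deposited TPM the log2(TPM + 1) difference between CPZ and CTL was 0.58 (limma adjusted p = 0.384), and that between CPZ and RCV was 0.22 (limma adjusted p = 0.841). The ratio of TPM to CPM of Entpd1 differed by 2.31-fold between its lowest library, CTL replicate 4, and its highest, RCV replicate 3. That ratio differed by 2.25-fold for Adora3, by 2.04-fold for Nt5e and by 1.07-fold, the least of the members, for Adora1. P2rx7 and P2rx4 also lost their calls between CPZ and CTL in TPM, with a limma adjusted p = 0.0526 and 0.151, while P2ry6 and Adora3 kept theirs. Against RCV, P2rx7 lost its call in TPM as well (limma adjusted p = 0.135).

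Nt5e, at 88327197 to 88372092 on the plus strand of chromosome 9, had 7.49 ± 2.15 CPM in CTL (SD, n = 5), 6.99 ± 1.98 CPM in CPZ (SD, n = 4) and 7.46 ± 3.15 CPM in RCV (SD, n = 4). The spread within each group was wide, from 4.69 to 10.6 CPM within RCV alone, and the log2 fold change between CPZ and CTL was -0.10 with a 95% interval from -0.66 to 0.46. The rise from CTL to CPZ was 0.90 larger for Entpd1 than for Nt5e on the log2-CPM scale, which did not pass the adjustment (two-sided exact permutation p = 0.0476, adjusted p = 0.0893).

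The adenosine receptors among the members were the highest and the lowest of the 9 in CTL per transcript length, and Adora3 but not Adora1 was called. Adora1 encodes the A1 receptor and had 200.1 ± 33.7 CPM in CTL (SD, n = 5), 205 ± 8.48 CPM in CPZ (SD, n = 4) and 205 ± 21.2 CPM in RCV (SD, n = 4). CTL replicate 4 was the lowest mouse at 141 CPM, and all others were between 177 and 228 CPM. Its log2 fold change between CPZ and CTL was 0.04 with a 95% interval from -0.18 to 0.25, the narrowest interval of the members in that comparison. The exons of Adora1 share 1162 bases with Mybph on the opposite strand, which had at most 6 counts per library.

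Adora3 encodes the A3 receptor, which in the rodent brain is known from microglia, and lies on the plus strand of chromosome 3 at 105870858 to 105908926. Its CPM values were 0.816, 0.75, 0.615, 0.459 and 0.183 in CTL, 4.18, 4.50, 2.77 and 3.23 in CPZ, and 1.47, 2.11, 1.54 and 1.74 in RCV. The 3 groups did not overlap, with CTL lowest, RCV in between and CPZ highest. The values rest on 1 to 6 counts per library in CTL, 8 to 13 in RCV and 20 to 37 in CPZ. The log2 fold change was 2.62 between CPZ and CTL (standard error 0.31, edgeR adjusted p = 2.07e-05) and 1.09 between CPZ and RCV (standard error 0.29, edgeR adjusted p = 0.0284).

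Between RCV and CTL the log2 fold change of Adora3 was 1.53 (standard error 0.35), and the edgeR adjusted p was 0.0913, between 0.0829 and 0.536 in the alternatives. Without a library the call between CPZ and RCV was lost 5 times, with adjusted p = 0.0935 without CPZ replicate 1, 0.104 without CPZ replicate 2, 0.0985 without RCV replicate 1, 0.0793 without RCV replicate 3 and 0.0568 without RCV replicate 4. In the 3 fits of TPM its limma adjusted p against RCV was between 0.0848 and 0.19. The change of Adora3 exceeded that of Adora1 by 2.18 from CTL to CPZ and by 1.21 from CTL to RCV on the log2-CPM scale (two-sided exact permutation tests, p = 0.0159 and adjusted p = 0.0476 for each), and on the log2 TPM scale both had an adjusted p = 0.0794. The annotated exons of Adora3 share 779 bases, 20.9% of its exon length, with Tmigd3 on the same strand. Both Tmigd3 identifiers had at most 1.31 estimated counts in any library, so that few reads were assigned there.

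**Figure D2:**
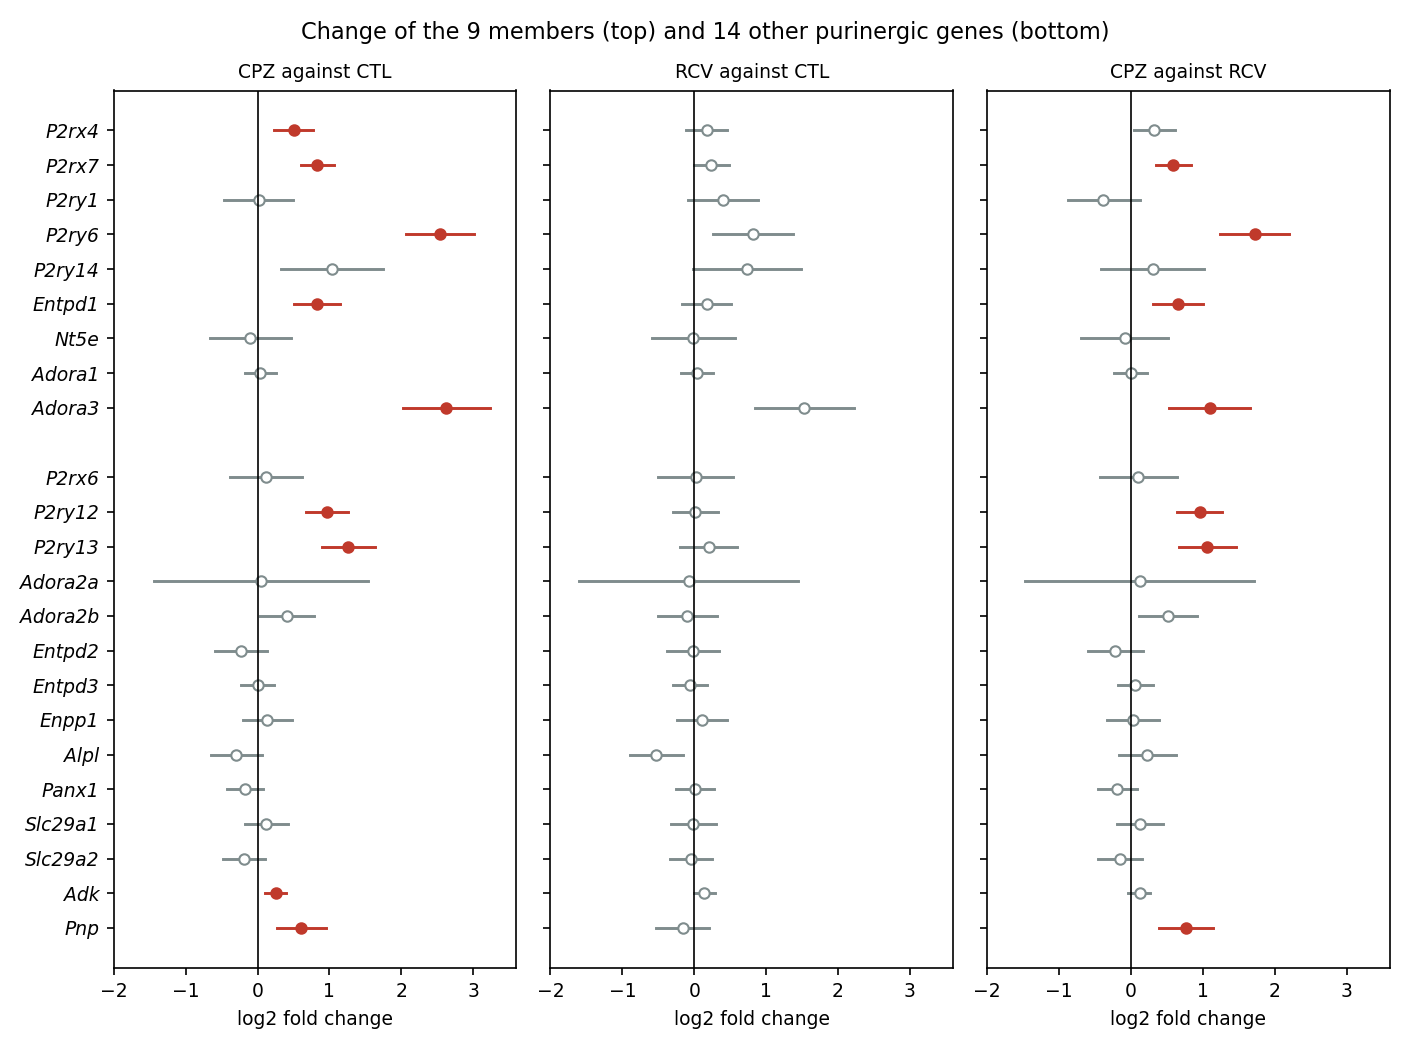
Log2 fold change (x axis) of the 9 members and of 14 other purinergic genes that passed the filter, in the 3 comparisons. Points are edgeR estimates, lines their 95% intervals, and filled red points have an adjusted p below 0.05. The intervals of P2ry6 and Adora3 lie farthest to the right between CPZ and CTL, and no gene is filled between RCV and CTL.

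Levels of the members were compared with each other per transcript length, in TPM. Adora1 was the highest in all groups, at 94.0 ± 15.2 TPM in CTL (SD, n = 5), 93.3 ± 3.87 in CPZ (SD, n = 4) and 94.8 ± 9.67 in RCV (SD, n = 4). It was followed by P2rx4 with 23.0, 31.1 and 25.1 TPM, and by Entpd1 with 13.96, 20.9 and 18.1 TPM, as means of CTL, CPZ and RCV. The range of Adora1 did not overlap with that of P2rx4 in any group, whereas most other neighbours in the order overlapped. P2ry6 moved from rank 7 in CTL, at 2.31 ± 0.84 TPM (SD, n = 5), to rank 4 in CPZ, at 12.1 ± 3.57 TPM (SD, n = 4), and was at rank 7 in RCV, at 3.55 ± 1.16 TPM (SD, n = 4). In CPZ its level overlapped with those of P2rx7 and Entpd1, which were above the mean of P2ry6 in CTL in every CTL mouse. Adora3 was last in CTL and RCV, at 0.766 ± 0.307 and 1.80 ± 0.361 TPM, and at rank 7 in CPZ, at 3.70 ± 0.922 TPM.

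**Figure D3:**
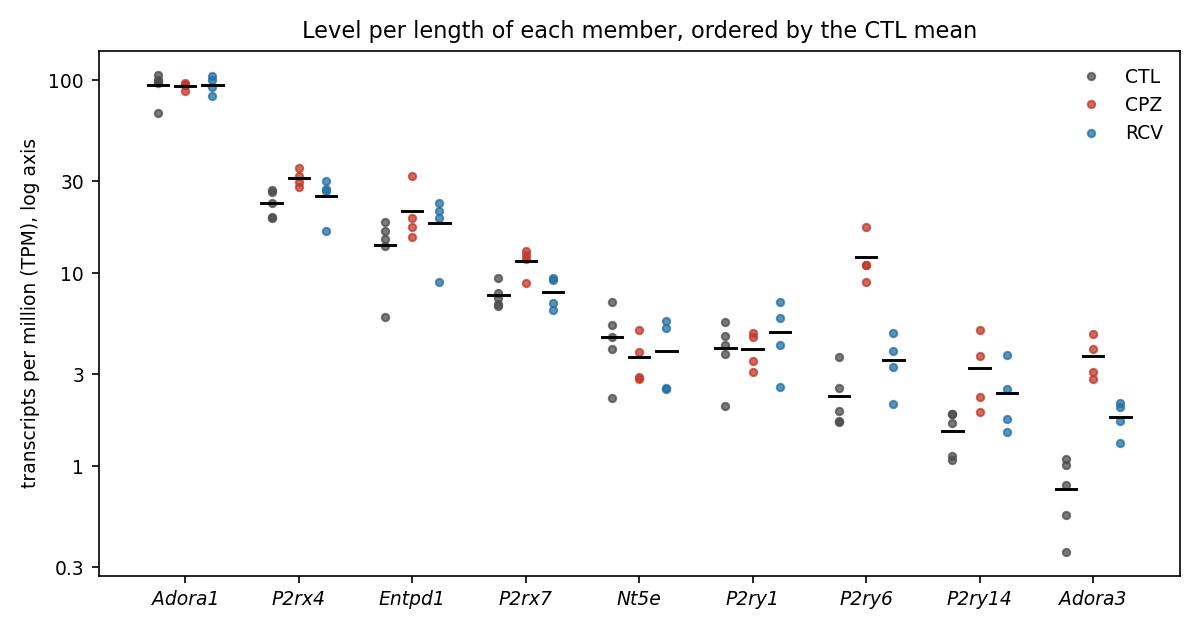
TPM on a log axis for the 9 members, ordered by their CTL mean. Points are mice of CTL (n = 5), CPZ (n = 4) and RCV (n = 4), and black lines are group means. Adora1 stays near 94 TPM in each group, and P2ry6 and Adora3 show the largest steps from CTL to CPZ among the members.

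Several members are known from microglia, so their levels were set beside 15 other microglial genes measured in the same mice, among them Csf1r, Tmem119 and C1qa, a list that holds no member. Each of the 15 rose from CTL to CPZ, and the median of their log2 fold changes was 2.65. Their summed level was 436 to 529 CPM in CTL, 1636 to 3517 in CPZ and 680 to 945 in RCV. In bulk tissue more cells of a type and more RNA per cell cannot be told apart. Genes of mature oligodendrocytes were called lower for 11 of 12, with a median of -1.47. Between CPZ and CTL 3 of 8 astrocyte genes and 1 of 7 tested genes of oligodendrocyte precursors were called higher, and none of the tested genes of neurons in general, hippocampal or striatal neurons, endothelium, meninges or choroid plexus. Among genes known from blood monocytes, Ccr2, Ly6c2, Chil3, Plac8 and Hp had at most 8 counts in any library, and Fn1 and S100a4, which other cell types also express, were called higher in CPZ. The labels give no batch, and mitochondrial transcripts took between 3.76% and 5.07% of the counts.

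P2ry6 had a nearly constant level relative to these microglial genes. Its log2-CPM minus the mean log2-CPM of the list was -3.41 ± 0.17 in CTL (SD, n = 5), -3.59 ± 0.31 in CPZ (SD, n = 4) and -3.55 ± 0.27 in RCV (SD, n = 4). The differences of -0.18 between CPZ and CTL and -0.04 between CPZ and RCV were within the spread between mice (two-sided exact permutation p = 0.397 and 0.8). All 13 mice lay between -4.02 and -3.18, and no difference from the list was detectable with these numbers of mice.

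P2rx4, P2rx7 and Entpd1, which were called higher in CPZ, were lower relative to the list in CPZ than in CTL, by 2.03, 1.72 and 1.71 on the log2-CPM scale (two-sided exact permutation tests, p = 0.0159 and adjusted p = 0.0476 for each over 27 tests). The members that were not called fell relative to the list too, which restates the rise of the list. For P2rx7 the values relative to the list were -0.80 ± 0.23 in CTL (SD, n = 5), -2.51 ± 0.43 in CPZ (SD, n = 4) and -1.41 ± 0.30 in RCV (SD, n = 4). Those of Entpd1 were -0.59 ± 0.29, -2.31 ± 0.31 and -1.24 ± 0.20 in the same order and with the same n. Both genes rose in CPZ in absolute terms, but by less than the microglial genes of the same mice. On the log2 TPM scale the adjusted p of these 3 differences between CPZ and CTL was 0.0536.

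Relative to the same list, Adora3 was higher in every RCV mouse than in any CPZ mouse. P2rx4, P2rx7, P2ry1, Entpd1, Nt5e and Adora1 showed the same order. Their differences of CPZ minus RCV were larger, from -1.07 for Entpd1 to -2.02 for P2ry1, so that the order is not particular to Adora3. Adora3 was at -4.73 ± 0.47 in CTL (SD, n = 5), -5.03 ± 0.25 in CPZ (SD, n = 4) and -4.30 ± 0.14 in RCV (SD, n = 4). The 4 RCV mice, at -4.43, -4.20, -4.16 and -4.41, were all above the 4 CPZ mice, at -5.33, -5.10, -4.74 and -4.94. The difference of CPZ minus RCV was -0.73 (two-sided exact permutation p = 0.0286, adjusted p = 0.0476), and on the log2 TPM scale it was -0.72 with an adjusted p = 0.0857. This p is the smallest that 4 against 4 mice allow, and its adjusted value is lowered by the tests of members that restate the rise of the list. With a library left out the difference stayed between -0.82 and -0.63, and the adjusted p was below 0.05 only without CTL replicate 1 or 4. Between CPZ and CTL the difference was -0.30 (two-sided exact permutation p = 0.302), and between RCV and CTL it was 0.43 (two-sided exact permutation p = 0.0794). Both rest on 1 to 6 counts of Adora3 per CTL library, whose log2-CPM the prior count of 2 raises toward the other groups. The difference between CPZ and RCV rests on 20 to 37 and 8 to 13 counts per library, and the prior count raises the RCV values more.

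**Figure D4:**
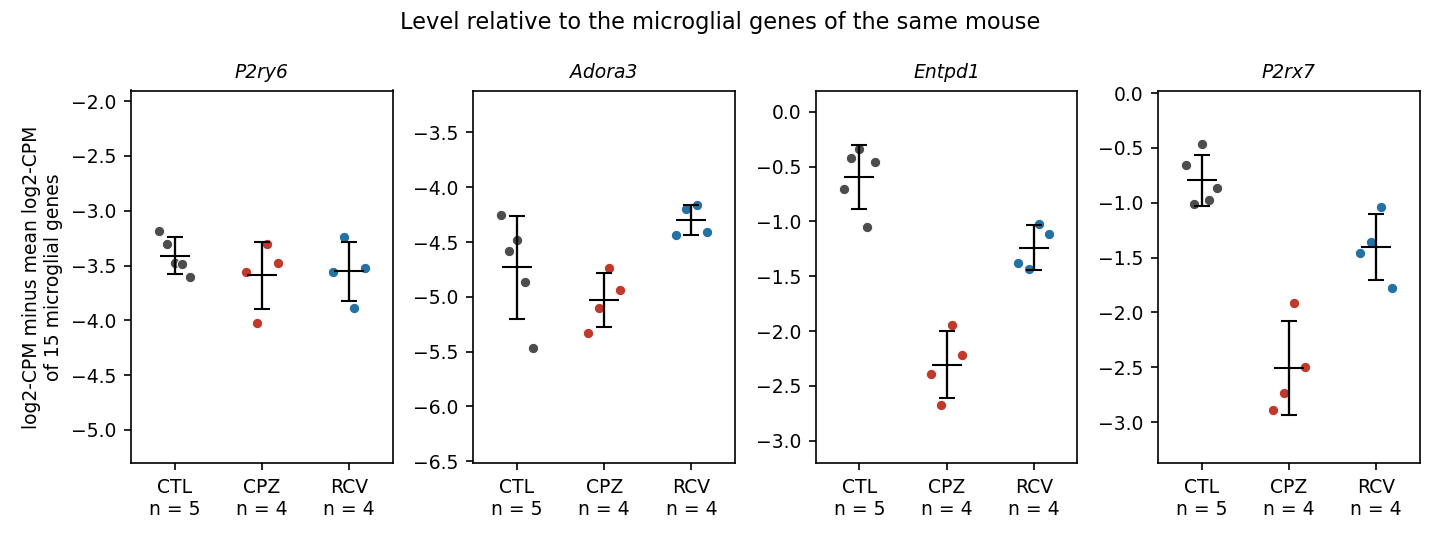
Log2-CPM of P2ry6, Adora3, Entpd1 and P2rx7 minus the mean log2-CPM of 15 microglial genes of the same mouse (y axis, the same span in each panel), for CTL (n = 5), CPZ (n = 4) and RCV (n = 4). Points are mice, and bars are the mean ± SD. P2ry6 stays between -4.02 and -3.18 in all mice, the RCV points of Adora3 lie above its CPZ points, and the CPZ points of Entpd1 and P2rx7 lie below all others.

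The position of the RCV mice between the other groups was expressed as the share of the difference between the CPZ and CTL means, on the log2-CPM scale, that remained in each RCV mouse. For Adora3 the share was 0.566 ± 0.089 (SD, n = 4), from 0.487 to 0.687. It was 0.295 ± 0.192 for P2ry6, 0.276 ± 0.249 for P2rx7, 0.235 ± 0.231 for Entpd1 and 0.305 ± 0.643 for P2rx4, and 0.33 ± 0.077 for the microglial list (SD, n = 4 for each). The lowest share of Adora3 was above the highest share of the list, 0.396, whereas the shares of P2rx4 ran from -0.598 to 0.925 and carry little information on recovery. These SDs and ranges cover the RCV mice only and leave out the spread of the CTL and CPZ means. For Adora3 the CTL mean rests on 1 to 6 counts per library, and the difference in share from the list was not tested.

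Of 26 other genes of the pathway, listed by function, 14 passed the filter on counts. Between CPZ and CTL, 4 of these were called, each with the higher level in CPZ, beside 7.66% of all genes tested. Among the 14, 0 were called between RCV and CTL by edgeR, DESeq2 or limma-voom. In edgeR 1 had an unadjusted p below 0.05 in that comparison, beside 929 of the 14985 genes tested. Of the 14, 3 were called higher in CPZ than in RCV, beside 5.13% of all genes. The median log2 fold change of the 14 between CPZ and CTL was 0.12, beside -0.02 over all genes tested and 0.83 over the 9 members.

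P2ry12 and P2ry13, receptors for ADP that are known from resting microglia and lie near P2ry14 on chromosome 3, were called in both comparisons with CPZ. P2ry12 had 22.8 ± 3.38 CPM in CTL (SD, n = 5), 44.5 ± 11.1 CPM in CPZ (SD, n = 4) and 23.0 ± 1.33 CPM in RCV (SD, n = 4). Its log2 fold change between CPZ and CTL was 0.97 (standard error 0.15, edgeR adjusted p = 0.000394), and that between RCV and CTL was 0.01 with a 95% interval from -0.30 to 0.33. P2ry13 ranged from 7.50 to 13.9 CPM in CTL, from 17.1 to 32.3 CPM in CPZ and from 11.4 to 14.2 CPM in RCV, with a log2 fold change of 1.26 between CPZ and CTL (edgeR adjusted p = 0.000263). Their calls held in all 23 alternatives of both comparisons.

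Enzymes that handle adenosine and inosine inside cells changed by less. Adk, the kinase that returns adenosine to AMP, was higher in CPZ than in CTL by 0.25 (log2 fold change, edgeR adjusted p = 0.0399), a call that was lost in 11 of 23 alternatives. Pnp, purine nucleoside phosphorylase, was higher by 0.61 (log2 fold change, edgeR adjusted p = 0.0352), a call lost in 9 of 23. It was also higher in CPZ than in RCV, by 0.76 (log2 fold change, edgeR adjusted p = 0.022), a call lost in 7 of 23. Its estimated counts may be shared with the close copy Pnp2.

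The remaining 10 tested genes were not called in any comparison. They include the other ectonucleotidases Entpd2, Entpd3, Enpp1 and Alpl, the ATP release channel Panx1, the nucleoside transporters Slc29a1 and Slc29a2, the channel P2rx6, and the adenosine receptors Adora2a and Adora2b. Alpl, a phosphatase of vessels, had a log2 fold change of -0.53 between RCV and CTL (edgeR adjusted p = 0.508). Adora2a, which is known from striatal neurons, ranged from 12.1 to 95.1 CPM within CTL and from 1.35 to 82.6 CPM within RCV. Its interval for CPZ against CTL, from -1.44 to 1.53 on the log2 scale, was the widest of the genes considered. The mean log2-CPM of 8 striatal genes, from 5.33 to 7.75 in CTL and from 4.29 to 7.52 in RCV, was lowest in RCV replicate 3 and highest in CTL replicate 2, as was Adora2a.

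The other 12 genes were below the filter, namely P2rx1, P2rx2, P2rx3, P2rx5, P2ry2, P2ry4, P2ry10, Entpd8, Enpp3, Slc17a9, Slc28a2 and Ada. Among them Slc17a9, the vesicular nucleotide transporter, had 0.458 ± 0.332 CPM in CTL (SD, n = 5), 1.33 ± 0.667 CPM in CPZ (SD, n = 4) and 0.514 ± 0.451 CPM in RCV (SD, n = 4). These ranges overlapped. In the edgeR fit without a filter on counts none of the 12 was called in any comparison, with an adjusted p of 0.175 for Slc17a9 and of 0.566 for P2ry2 between CPZ and CTL.

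The genes whose log2-CPM followed each member most closely over the 13 libraries were ranked among 14143 genes by Pearson's r, as a description that also reflects the shared groups. For P2ry6 they were Abca1, a cholesterol exporter, Tyrobp, the adaptor of TREM2, and Epb41l2, with r between 0.983 and 0.984. For Adora3 they were Gpam, Slc11a1 and Cd52 (r from 0.968 to 0.978), for P2rx7 Tln1, Hspe1 and Cnn3 (r from 0.956 to 0.963), for Entpd1 Mcl1, Tab2 and Rnaset2a (r from 0.941 to 0.959), and for P2rx4 Xaf1, Hk3 and Arhgap25 (r from 0.898 to 0.918). Adora1 was followed by Adra1d, Atad1 and Gpd1, Nt5e by Rcn1, Akap9 and Dlx6, P2ry1 by Lsm7, Mtg2 and Nfatc2, and P2ry14 by Ssb, Hsd17b4 and Adamtsl3, with r between 0.841 and 0.946.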

How the data were processed

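Bulk RNA-seq was made from 13 hemispheres with the Kapa mRNA HyperPrep kit as paired 50 bp reads and processed with the RNASequest pipeline. The submitters' processing notes name STAR, RSEM and mm10, without versions or a strand setting, so that antisense overlaps could not be resolved. The authors deposited estimated counts per gene (11.7% of nonzero values not whole, rounded here) and TPM values. Totals were 4605100 to 8197289 counts per library. Groups came from the treatment field of the labels, and RCV titles begin with "Veh". The text of the labels gives smaller groups than the 13 libraries. One library per mouse was deposited, and libraries of a group differed by more than sampling noise (chi-square per gene 4.23 to 16.3 over 22 pairs).

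CPM is the rounded count scaled by the library total of the tested genes and its TMM factor. The main test was the quasi-likelihood test of edgeR 4.0.16 (R 4.3.3, robust setting, TMM scaling, filterByExpr by group), made in 1 fit of all libraries with Benjamini-Hochberg adjustment over 14985 genes and a threshold of 0.05. Intervals are the estimate with its 95% normal interval. Log2-CPM used a prior count of 2. Differences within a mouse were tested by exact two-sided permutation over mice. The edgeR fit was tested on simulated counts, and the permutation test was checked on known values. Alternatives were DESeq2 1.42.0 (Wald test or size factors), limma-voom and limma on log2 TPM (limma 3.58.1, pseudocount 1 or 0.1, TPM of at least 1 in 4 libraries or no such filter), other count filters, only the groups compared, a replicate block, and each library left out. Python 3.11.15 with scipy 1.17.1 and matplotlib 3.10.9 was used for the rest.

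The members and the gene lists were chosen with earlier results of these data known. Named are the 9 members, other purinergic genes that were called or reached a mean of 1 TPM, genes of marker lists where a count is broken down, and the 3 genes most alike to each member (mean log2-CPM of 1 or more). Positions are from GENCODE M21 (98.1% of identifiers matched). The nuclei and spatial data of the study were not analysed here.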

Additional observations from a re-analysis of the deposited data

Results flagged for a closer look

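Adora1 in CTL replicate 4, at 141 CPM, lay far below the other 4 CTL mice, which had between 208 and 228 CPM. Its gap to the nearest mouse was 0.766 of the range of the group, above Dixon's 95% critical value of 0.71 for 5 values. Of 27 groups of values examined this was the only one, and chance gives such a value in about 1 of every 20 groups. Without this library the log2 fold change of Adora1 between CPZ and CTL was -0.07 in place of 0.04, and it was not called in either case.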

How the results depend on the processing

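Counts of members called higher in CPZ than in CTL, 5 in the report, fell to 2 in limma on log2(TPM + 1), on log2(TPM + 0.1) and without the TPM filter, where 4.6%, 4.35% and 2.6% of all genes were called higher in place of 7.66%. They fell to 3 with at least 10 counts in every library, where P2ry6, P2ry14 and Adora3 were not tested. In that fit 7.02% of all genes were called higher. Between CPZ and RCV the 4 calls fell to 1 in the 3 TPM fits. There 2.55%, 2.13% and 1.27% of all genes were called higher in place of 5.13%. The calls fell to 2 with 10 counts in every library, beside 4.97% of all genes. Leaving out single libraries gave 2 to 4 members between CPZ and RCV, beside 3.44% to 5.52% of all genes called higher. There were 2 calls without CPZ replicate 1 or 2 and without RCV replicate 1 or 3, beside 3.44%, 3.55%, 3.57% and 4.05%. Of the other purinergic genes, the 4 called between CPZ and CTL became 2 in the 3 TPM fits. With single libraries left out they were between 2 and 4, beside 5.86% to 7.92% of all genes called higher. They were 2 without CTL replicate 4, CPZ replicate 1 or CPZ replicate 4, beside 7.23%, 5.86% and 7.32%. The causes were not tested.

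Numbers shared in the titles did not pair the samples, with correlations of same-numbered deviations from -0.215 to 0.18. With the replicate block, 4 members were called between CPZ and CTL, 0 between RCV and CTL and 3 between CPZ and RCV. The shares of all genes called higher in that fit were 6.13%, 0.274% and 4.1%, in the same order. P2rx4 (adjusted p = 0.0795) and, against RCV, Entpd1 (0.105) lost their calls.

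Directions turned only where the value was near 0. Leaving out a library moved the log2 fold change between CPZ and CTL from -0.12 to 0.11 for P2ry1, from -0.28 to 0.03 for Nt5e and from -0.067 to 0.087 for Adora1. Between RCV and CTL the range was -0.22 to 0.17 for Nt5e and -0.065 to 0.096 for Adora1, and between CPZ and RCV -0.27 to 0.12 for Nt5e and -0.056 to 0.037 for Adora1. For Adora1 between CPZ and RCV it was 0.002 in limma-voom, 0.026 without a filter, and 0.011 both with 10 counts in every library and with the replicate block. P2ry6 relative to the microglial list, CPZ against RCV, was 0.05 in log2(TPM + 0.1), 0.043 against the median of the list and between -0.15 and 0.107 with a library left out. Between RCV and CTL, P2rx7 minus P2rx4 was -0.054 in log2(TPM + 0.1) and between -0.112 and 0.208 with a library left out, and P2ry6 minus P2ry14 between -0.055 and 0.356. In all, 549 of 610 alternative values of the members' fold changes kept direction and side of the threshold. Of the called differences relative to the list, 33 of 90 stayed called without a CTL library (adjusted p 0.0429 to 0.0857) and 0 of 72 without a CPZ or an RCV library (0.0714 to 0.102). No called difference between members stayed called with a library left out (0.0595 to 0.107). Fewer mice also raise the smallest p these tests allow. Depth limits Adora3, P2ry14 and, in CTL and RCV, P2ry6.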

Other observations

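After the group means were removed, the members' log2-CPM values were compared with the marker lists over the 13 libraries, a comparison chosen after seeing the data, and none of 90 relations passed the adjustment. The lowest adjusted p was 0.0644 for Pearson's r and 0.122 for Spearman's rho. The r farthest from 0 was that of Nt5e with the hippocampal list, at -0.863 (permutation p = 0.00143), with rho = -0.802 (permutation p = 0.0111). With the striatal list Nt5e had r = 0.823 (permutation p = 0.00309) and rho = 0.813 (permutation p = 0.00645). Without the 2 libraries farthest from the median of the list, r was -0.837 and 0.813. P2rx7 had r = -0.848 with the neuronal list (permutation p = 0.0027; rho = -0.852, permutation p = 0.00136), and -0.734 without 2 libraries. P2ry6 had r = 0.732 with the microglial list (permutation p = 0.00105; rho = 0.769, permutation p = 0.00505), and 0.619 without 2 libraries.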
